A study of Mus musculus with 2 samples.

Results

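Processed pseudogenes were examined for overlap with the peaks of H1t, the testis-specific linker histone, in mouse spermatogenic cells. All genes of type processed_pseudogene on chromosomes 1 to 19 of the GENCODE M21 annotation (mm10) were taken, which gave 8924 loci among 51229 annotated autosomal genes of all types. No peak value entered that choice. The series holds 2 libraries from spermatogenic cells isolated from the testes of ICR mice, an outbred stock, at 6 weeks of age. One was immunoprecipitated with a rabbit polyclonal antibody to H1t made by the submitters' laboratory, and the other is an input, which was not analysed here. The cells are labelled as germ cells, with no stage given, so spermatogonia, spermatocytes and spermatids cannot be told apart. The H1t library has no replicate, so the values below describe 1 library, no test between conditions was possible, and the 95% Wilson intervals given with shares cover counting error only.

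A processed pseudogene is a copy of a spliced messenger RNA that was reverse transcribed and inserted at another place in the genome, mostly by the enzymes of LINE-1 elements. Such copies lack the introns and usually the promoter of the parent gene, and they are most numerous for genes expressed strongly in the germ line, such as those of ribosomal proteins. Linker histones bind the nucleosome near the entry and exit of its DNA, and H1t is the form made in spermatocytes and early spermatids.

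The stretches below are shown because they carry the 3 patterns described further on: GC-rich copies with a peak, copies of the same or another parent without one, and a group of long, AT-rich loci. They come from the GENCODE M21 transcript sequences, are written 5′ to 3′ on the strand of the pseudogene, and lie where the pseudogene matches the coding sequence of its parent. Capitals mark CpG dinucleotides. Gm30671 (chr9:44610608-44610707, minus strand) and Rpl36-ps12 (chr6:108140368-108140467, minus strand) are copies of Rpl36 under a peak, and Rpl36-ps3 (chr12:12912037-12912136, plus strand) is a copy without one. Gm6990 (chr19:56755232-56755331, minus strand) is a copy of Mif under a peak. The 2 stretches of Gm12623, a copy of Pabpc4, are bases 1501 to 1600 (chr11:60573950-60574049, minus strand), under a peak, and bases 601 to 700 (chr11:60574850-60574949), outside the peak. Gm28900 (chr1:56451422-56451521, plus strand), a copy of Rpl21, and Rpl31-ps8 (chr15:90764542-90764641, minus strand), a copy of Rpl31, have no peak.
Gm30671: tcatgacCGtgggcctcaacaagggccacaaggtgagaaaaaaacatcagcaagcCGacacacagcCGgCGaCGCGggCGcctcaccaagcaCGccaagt
Rpl36-ps12: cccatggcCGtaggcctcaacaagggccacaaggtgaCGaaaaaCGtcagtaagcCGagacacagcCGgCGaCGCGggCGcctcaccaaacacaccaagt
Rpl36-ps3: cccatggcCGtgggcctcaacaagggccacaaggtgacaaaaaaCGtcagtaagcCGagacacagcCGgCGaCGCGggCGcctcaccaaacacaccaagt
Gm6990: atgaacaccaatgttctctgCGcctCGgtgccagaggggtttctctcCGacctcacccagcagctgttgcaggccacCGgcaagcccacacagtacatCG
Gm12623 under the peak: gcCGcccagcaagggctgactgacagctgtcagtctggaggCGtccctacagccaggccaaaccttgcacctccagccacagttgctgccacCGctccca
Gm12623 outside the peak: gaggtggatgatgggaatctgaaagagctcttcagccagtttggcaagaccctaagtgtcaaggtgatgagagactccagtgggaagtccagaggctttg
Gm28900: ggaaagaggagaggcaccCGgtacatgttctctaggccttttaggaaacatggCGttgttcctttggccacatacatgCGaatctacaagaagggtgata
Rpl31-ps8: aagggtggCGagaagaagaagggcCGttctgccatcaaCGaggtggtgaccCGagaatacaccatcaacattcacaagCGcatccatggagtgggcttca

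The stretches of Rpl36-ps12 and Rpl36-ps3 held 9 and 8 CpG dinucleotides and 61.0% GC each, although only the first lay under a peak. The 2 Gm12623 stretches held 3 and 0 CpG and 65.0% and 51.0% GC. The Rpl21 copy held 3 CpG and 48.0% GC, and the Rpl31 copy 5 CpG and 54.0% GC.

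In a second set, from the group of long loci described below, capitals mark the bases that differ from the first line. All are on the plus strand. Gm37515 (chr3:155907264-155907363) and Gm42785 (chr3:39826345-39826444) lie under a peak here, whereas Gm47968 (chr10:54215657-54215756) and Gm45038 (chr7:93525835-93525934) have no peak anywhere in their length.
Gm47968: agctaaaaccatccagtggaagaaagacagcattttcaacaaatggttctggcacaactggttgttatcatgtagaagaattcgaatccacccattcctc
Gm37515: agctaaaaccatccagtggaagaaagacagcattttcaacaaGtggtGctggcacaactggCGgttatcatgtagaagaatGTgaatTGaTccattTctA
Gm42785: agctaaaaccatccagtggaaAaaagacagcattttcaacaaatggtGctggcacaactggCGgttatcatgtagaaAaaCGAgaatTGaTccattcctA
Gm45038: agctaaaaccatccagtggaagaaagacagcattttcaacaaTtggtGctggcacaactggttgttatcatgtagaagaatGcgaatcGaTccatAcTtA

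Gm37515 differed from Gm47968 at 11 of 100 bases and Gm42785 at 12, and Gm45038, without a peak, at 8. Over all members compared without gaps in this stretch, the 12 under a peak differed from Gm47968 at a median of 10 bases (at most 12) and the 12 without a peak at a median of 16 (at most 64). Without gaps, an inserted or lost base can shift the rest of a stretch and count as many differences. Over their length, pairs of members were at least 84.4% identical. Whether such shifts raised the counts was not tested, so these medians do not show that copies without a peak were more diverged. The 4 stretches shown held 40% to 41% GC.

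H1t peaks touched 366 of the 8924 processed pseudogenes, or 4.10% (3.71% to 4.53%). Of autosomal windows of 546 bases, the median length of a pseudogene, 3.98% were touched, so the share of all processed pseudogenes was close to that of windows of this 1 length. Longer windows were touched more often, in 9.50% at 2929 bases, and pseudogenes run up to 56312 bases. The median window therefore understates the level for the longer loci, and windows by length class are given below. By bases, 3.0% of pseudogene sequence and 2.45% of the autosomes lay under a peak, a ratio of 1.22. Counting only annotated exons of all 8924 loci gave a ratio of 1.04. The next values leave out 1 sequence group of 42 members, chosen for its large share touched, and 29 related loci. Without them 2.41% of pseudogene bases were covered, a ratio of 0.982, and 331 of 8853 loci were touched (3.74%). Annotated exons of these 8853 loci were covered over 1.85% of their bases, compared with 5.24% for exons of autosomal protein-coding genes, 1.78% for lincRNA exons and 1.07% for exons of unprocessed pseudogenes, which arise by DNA duplication.

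The peaks on pseudogenes resembled the rest of the list in strength and size. The score is the authors' own value for each peak, deposited with the list without a stated definition, and runs from 50 to 3100. The 420 peaks that touched a processed pseudogene had a median score of 72.43 and a median width of 685 bases, and all 72438 autosomal peaks had medians of 73.82 and 699 bases. The best score on a touched pseudogene ran from 50.01 to 464.65. Of the 366 touched loci, 254 held a peak midpoint, 175 were covered over at least 50% of their length and 66 over all of it. Gm7046, a 2-exon locus of 14602 bases, held 5 peaks, the most on any member, none of which reached its 977 exon bases.

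Pseudogenes of 300 up to 1000 bases were touched less often than windows of their length, and the longest more often. Below 300 bases, 38 of 1533 were touched (2.48%), with an interval of 1.81% to 3.38% that includes the value for windows (3.10%). From 300 up to 600 bases 101 of 3368 were touched (3.0%, 2.47% to 3.63%; windows 3.68%). From 600 up to 1000 bases 66 of 2162 were touched (3.05%, 2.41% to 3.87%), which was the class farthest below its windows (4.59%), at a ratio of 0.665. From 1000 up to 2000 bases 80 of 1435 were touched (5.57%; windows 5.78%). At 2000 bases or more the share was 81 of 426 (19%, 15.6% to 23.0%; windows 9.50%). In this last class 54.5% of the loci have more than 1 annotated exon, and counting only peaks that reach an exon left 56 loci (13.1%). Leaving out the long sequence group and its relatives left 52 of 379 (13.7%), of which single-exon loci gave 13 of 147 (8.84%) and loci with several exons 39 of 232 (16.8%). The length of a locus and the unspliced sequence inside it cannot be told apart in these last figures.

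**Figure D1:**
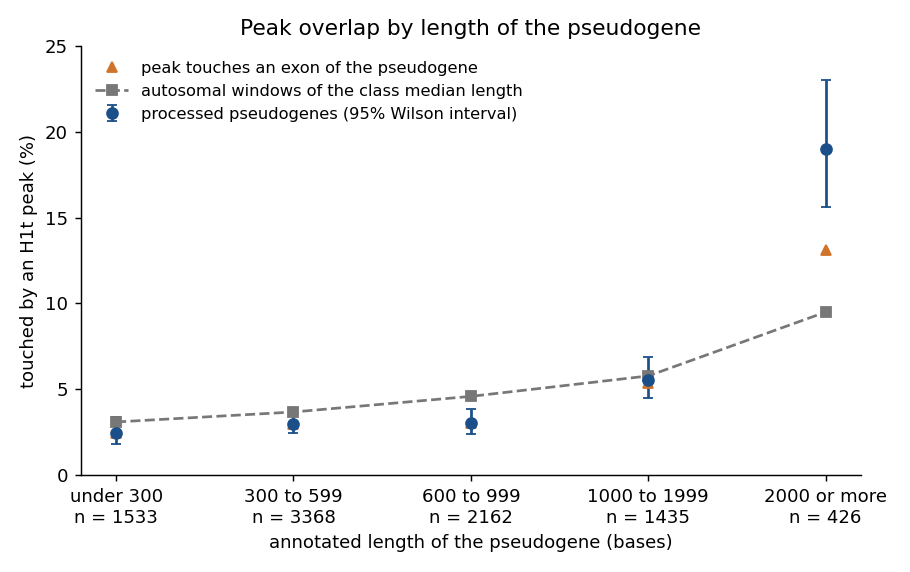
Share of processed pseudogenes touched by an H1t peak (%) in 5 length classes, with 95% Wilson intervals, beside the share with a peak in an exon and the share of autosomal windows of the class median length. The 3 classes below 1000 bases lie below the windows (2.48% to 3.05%), and the class of 2000 bases or more lies above them at 19%, or 13.1% by exons.

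The 3 longest loci with a peak were Gm7046, a copy of Pkm (pyruvate kinase), Gm19368 with 11915 bases and Gm19026 with 11642 bases. The 3 longest without one were AC174780.1 with 56312 bases, AC154486.3 with 30520 and AC139233.1 with 13037. All 6 have 2 or 3 annotated exons, so most of each span is not copied messenger RNA.

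Touched and untouched pseudogenes differed in GC content. Outside the long group and its relatives, touched loci had a median GC content of 53.7% (quartiles 47.5% and 57.1%) and 2.46 CpG per 100 bases, and untouched loci 47.5% (43.9% and 51.0%) and 1.29 CpG per 100 bases. In 5 classes of equal size over all 8924 loci, the share touched was 4.54%, 1.46%, 1.57%, 2.35% and, in the class of highest GC content (52.2% to 72.1%), 10.6% (189 of 1784, 9.25% to 12.1%). The lowest class (25.4% to 42.9% GC) held all 42 members of the long group, and without them and their relatives the share there was 47 of 1720 (2.73%). In finer steps outside the long group, 28 of 708 loci were touched below 40% GC (3.95%), 36 of 2048 at 40% to 45% (1.76%), 51 of 3160 at 45% to 50% GC (1.61%), 83 of 2184 at 50% to 55% (3.80%), 97 of 644 at 55% to 60% (15.1%) and 36 of 109 at 60% or more (33.0%, 24.9% to 42.3%). Thus 133 of the 331 touched loci came from the 753 loci with at least 55% GC.

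The covered share at a given GC content was nearly the same in pseudogenes as in coding sequence from 45% GC upward. The long group and its relatives are left out of the values for processed pseudogenes in this comparison. Among exons of at least 100 bases, the share of bases under a peak was 0.398% in processed pseudogenes and 0.330% in coding sequence at 45% to 50% GC. At 50% to 55% the 2 values were 2.14% and 2.28%, at 55% to 60% 11.1% and 12.3%, and at 60% or more 34.0% and 33.7%. Unprocessed pseudogenes and lincRNA exons reached 31.0% and 32.8% in the highest class. Below 40% GC, 1.31% of processed pseudogene bases were covered, compared with 0.209% of coding sequence, 0.0744% of unprocessed pseudogenes and 0.445% of lincRNA exons. A sequence group of 8 loci described further on, neighbours of the long group, carried much of that value, which was 0.593% without it. The input was not analysed here, so whether recovery of GC-rich DNA in the libraries contributes was not tested.

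**Figure D2:**
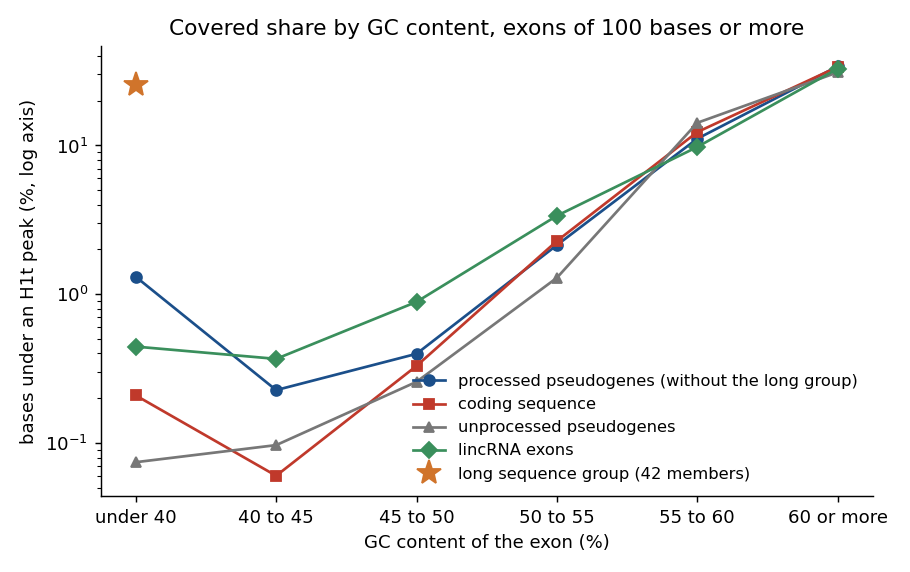
Share of exon bases under an H1t peak (%, log axis) against exon GC content for processed pseudogenes, coding sequence, unprocessed pseudogenes and lincRNA exons of at least 100 bases; the star marks the long sequence group as a whole. From 50% GC upward processed pseudogenes and coding sequence differ little (11.1% and 12.3% at 55% to 60%), and the long group stands at 25.4% in the lowest class.

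The same relation held within single loci. In 161 single-exon pseudogenes that were covered in part, with at least 50 bases on either side of the peak edge, the covered bases had a median GC content of 56.6% and the uncovered bases 50.9%. The covered part was the richer in GC in 131 of the 161. CpG density went with overlap in part of the GC range. At 50% to 55% GC, 12 of 728 loci in the lowest of 3 equal classes of observed over expected CpG were touched (1.65%), 29 of 727 in the middle class (3.99%) and 42 of 728 in the highest (5.77%). The 3 classes gave 1.46%, 1.61% and 2.20% at 40% to 45% GC and 1.14%, 0.855% and 2.85% at 45% to 50%. At 55% to 60% GC the 3 classes were alike, with 14.9%, 16.4% and 14%. No steady order was seen at 60% or more (24.3%, 42.9% and 32.4%). Below 40% GC, 23 of the 28 touched loci lay in the highest CpG class.

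Over all GC classes together, copies closer to their parent were touched more often. A parent was assigned by sequence to 7927 pseudogenes, the coding transcript of several exons that matched best, which gave 2259 parents. The share touched was 1.33% below 80% identity (22 of 1655), 3.66% from 85% to 90% and 7.40% at 98% or more (60 of 811, 5.79% to 9.41%). Median GC content moved with identity, from 45.5% to 50.3% over these classes. Within GC classes, loci with at least 90% identity were touched in 2.50% against 0.938% at 45% to 50% GC and in 5.24% against 2.03% at 50% to 55%. At 55% to 60% GC the 2 shares were 15.4% and 14.7%. At 60% GC or more the order was the reverse, with 16 of 67 loci of at least 90% identity touched (23.9%, 15.3% to 35.3%) and 15 of 25 of lower identity (60%, 40.7% to 76.6%). How reads with several matching positions were treated is not given in the sources used here, and its part in these shares was not tested.

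Pseudogenes inside introns were touched in a slightly smaller share than those between genes. Of 6270 intergenic loci 267 were touched (4.26%, 3.79% to 4.79%), and of 2336 loci inside an intron of a coding or long non-coding gene 81 were (3.47%, 2.80% to 4.29%). The ratio was 0.814, with a counting interval of 0.638 to 1.04 that includes 1; with only protein-coding genes as hosts it was 0.736 (0.558 to 0.971). Another 318 loci touch an exon of another gene, and 18 of these had a peak (5.66%). Intronic loci on the strand of the host gene were touched in 21 of 845 cases (2.49%), and those on the opposite strand in 55 of 1414 (3.89%), with overlapping intervals (1.63% to 3.77% and 3.0% to 5.03%). At matched GC content, outside the long group, intergenic and intronic loci gave 1.72% and 1.51% at 45% to 50%, 3.77% and 3.51% at 50% to 55%, and 17.0% and 10.5% at 55% to 60%. At 60% or more they gave 27 of 82 (32.9%) and 6 of 16 (37.5%). The shares by distance to the nearest coding start site likewise leave out the long group and its relatives. Within 1 kb 2 of 58 loci were touched, 52 of 1405 at 1 to 10 kb (3.70%), 184 of 4417 at 10 to 100 kb (4.17%) and 93 of 2973 at 100 kb or more (3.13%).

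The share touched by chromosome ran from 4 of 316 on chromosome 18 (1.27%, 0.493% to 3.21%) and 9 of 513 on chromosome 14 (1.75%) to 37 of 581 on chromosome 4 (6.37%) and 33 of 505 on chromosome 10 (6.53%, 4.69% to 9.04%). Chromosome 10 holds 11 members of the long group.

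Names give a parent for a small part of the loci. The symbol of 469 pseudogenes ends in -ps and a number, and for 424 of them the prefix is itself an annotated gene symbol. Peaks touched 19 of the 424 (4.48%, 2.89% to 6.89%) and 23 of the 469 (4.90%). The shares of their GC classes would give 20.4 of the 469. Where a parent was also assigned by sequence, the name and the sequence gave the same gene for 405 of 414 loci.

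The highest scores among named copies were those of Mup-ps26 (456.40), Rps12-ps2 (251.83) and Mup-ps29 (229.42). Mup-ps26 and Mup-ps29, loci of 202 bases on chromosome 4 named for the major urinary protein genes, matched best to Mepce, which caps the 7SK RNA, at 88.3% and 85.8% identity. Mup-ps26 lies inside a far wider peak, of 3280 bases, and Mup-ps29 was covered over 165 of its bases by a peak of 2442 bases. Rps12-ps2 was touched over 29 of its 399 bases and Rps19-ps12 (score 158.05) over 43 of 412, so in these 2 copies of small-subunit ribosomal protein genes the peak lay mostly outside the copied sequence. The next were Rpl29-ps1 (113.14), Ybx1-ps2 (99.88), Rpsa-ps10 (97.46), Eif3s6-ps4 (77.91), Rpl19-ps1 (75.50) and Mif-ps7 (73.13). Rpsa-ps10, a copy of the gene of the ribosomal protein also known as laminin receptor, was covered over 848 of 885 bases, and Rpl19-ps1 and Mif-ps7 over all of theirs. Ybx1-ps2 derives from the gene of a cold-shock protein that packages messenger RNA and was covered over 258 of 957 bases.

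At least 10 copies were named in this manner for 6 parents, all of them ribosomal protein genes. Rps19 had 1 touched copy among 14. No copy was touched among 24 named for Rpl31, 14 for Rpl21, 13 for Rpl23a, 10 for Rpl17 and 10 for Rpl7a. The median GC content of these 5 families ran from 44.9% to 52.1%, and that of the Rps19 copies was 54.3%. Of the parents, Rpl17 had 1 peak that covered 5.50% of its exon bases and Rpl7a 1 peak at its start site that covered 17.2%, and Rps19, Rpl31, Rpl21 and Rpl23a had none. Among the parents of the highest-scoring named copies, Rps12 and Rpl29 had no peak, Rpsa had 1 (score 83.20), Rpl19 had 1 at its start site (52.55) and Mif had 1 (104.84) that covered 91.7% of its exon bases.

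Assigned by sequence, 142 parents had at least 10 pseudogenes, 4048 in all, of which 122 were touched (3.01%). In 87 of these families no copy was touched. The largest were Rpl21, 0 of 116 (interval up to 3.21%), Rpl17, 0 of 96, Rps6, 0 of 95, Crb1, 0 of 84, Ppia (cyclophilin A), 0 of 74, and Rpl31, 0 of 57. Families with a median GC content below 45% gave 11 of 593 copies (1.85%), those from 45% to 50% 28 of 1768 (1.58%), those from 50% to 55% 63 of 1548 (4.07%) and the 7 families at 55% or more 20 of 139 (14.4%). Where the parent had a peak in an exon, 54 of 1424 copies were touched (3.79%, 53 families), and where it had none 68 of 2624 were (2.59%, 89 families). The median GC content of these families was 49.1% and 47.4%.

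**Figure D3:**
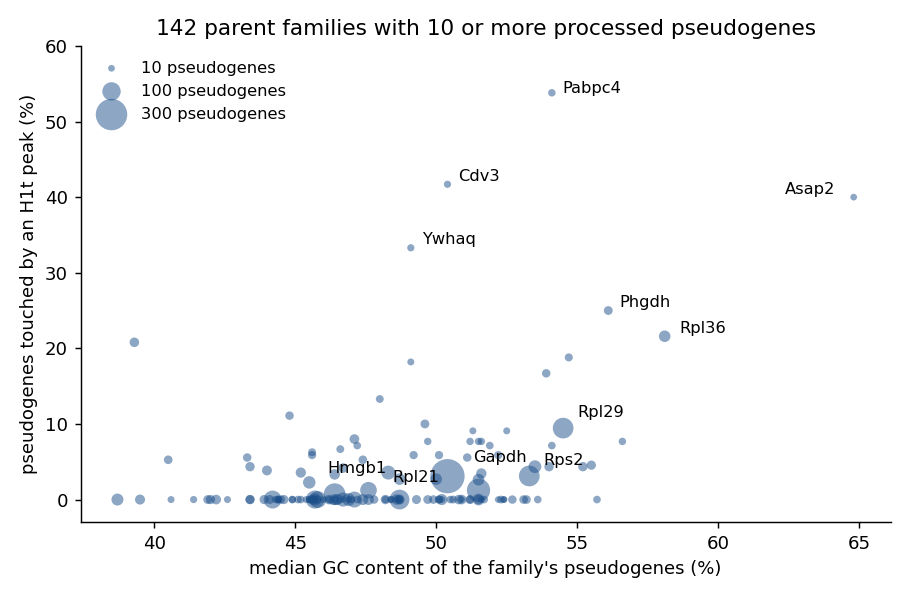
Share of processed pseudogenes touched by an H1t peak (%) against the median GC content of the family (%) for 142 parents with 10 or more copies; the area of a point grows with the number of copies. Rpl36 (58.1% GC) reaches 21.6% and Pabpc4 53.8%, and Rpl21 with 116 copies lies at 0.

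The families with the largest shares, named after their values were seen, were Pabpc4, Cdv3, Asap2, Ywhaq, Phgdh and Rpl36. Next came 4930512M02Rik, whose copies had a median GC content of only 39.3%. It had 5 touched copies of 24 (20.8%, 9.24% to 40.5%), where the shares of their GC classes would give 0.795, and 6 peaks at the parent. Among the 5, Gm47934 shared its peak with Gm47932 of the long group described below. Rpl36, of the large ribosomal subunit, had 8 touched copies of 37 (21.6%, 11.4% to 37.2%), where the shares of their GC classes would give 6.65. Of the 8, 7 were covered over their whole length. Their scores ran from 53.31 to 95.44, and the parent had a peak at its start site (71.71). Rpl29, of the same subunit, had 12 of 127 (9.45%), against 10.4 from its GC classes, and no peak at the parent. Phgdh, the first enzyme of serine synthesis from glycolytic intermediates, had 5 of 20 against 2.34. Ywhaq, a 14-3-3 adaptor protein, had 4 of 12 against 0.667, although 3 of the 4 copies held only 49.0% to 50.8% GC. Of the 12 Cdv3 copies 9 lie on 1 chromosome, and the 5 touched ones are spread over chr4:145455633-147268108, so they are neighbours as well as copies. The GC classes of the 12 would give 0.595 touched copies. The 10 Asap2 fragments, about 126 bases long, all lie on chromosome 12 at a median GC content of 64.8%. Of these, 4 were touched, close to the 3.30 from their GC classes, and all 4 were wholly covered at scores from 160.95 to 318.15.

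Pabpc4, a cytoplasmic poly(A)-binding protein, gave the highest share, 7 of 13 copies (53.8%, 29.1% to 76.8%) where their GC classes would give 0.923. That count takes no account of length, and the touched copies were the long ones: 7 of the 8 with at least 1800 bases had a peak and none of the 5 shorter ones. Of these 7, 4 lie within chr11:60573567-60684164 and 2 within chr4:12114284-12127252. They are thus neighbours as well as copies, and the share and its interval do not rest on 7 separate sites. On chromosome 11, Gm12623 had a score of 217.77, Gm12626 209.67, Gm12620 172.04 and Gm12612 56.08. On chromosome 4, Gm11839 had 84.89 and Gm11841 60.32, and Gm5466 on chromosome 2 had 101.87. The peaks overlapped most between bases 1401 and 1700, which all 7 copies had touched in each 100-base step. From base 1001 to base 1800 between 71.4% and 100% of the aligned 100-base steps were covered, at median GC contents of 55% to 66%. Bases 1 to 300 were touched in 4 of the 7 copies. From base 301 to base 900 at most 14.3% were covered, at 44% to 51%. The parent had 3 peaks, which covered 21.7% of its exon bases.

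Gapdh, the glycolytic enzyme with the largest family, had 11 of 356 copies touched (3.09%), against 12.7 from GC classes, and the parent had no peak. Identity set the touched copies apart: 9 of 65 copies with at least 95% identity had a peak (13.8%, 7.46% to 24.3%), 1 of 72 from 90% to 95% and 1 of 219 below 90%. The median GC content of these 3 classes was 54.7%, 51.8% and 49.0%. In the 9 single-exon copies that had a peak, bases 501 to 800 were covered over 88.3% to 88.9%, and bases 1 to 100 over 11.1%. The 9 had scores from 51.05 to 102.07. In Rpl29 the touched and untouched copies likewise differed in median GC content (56.1% and 54.3%) and in median identity (92.5% and 89.2%).

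**Figure D4:**
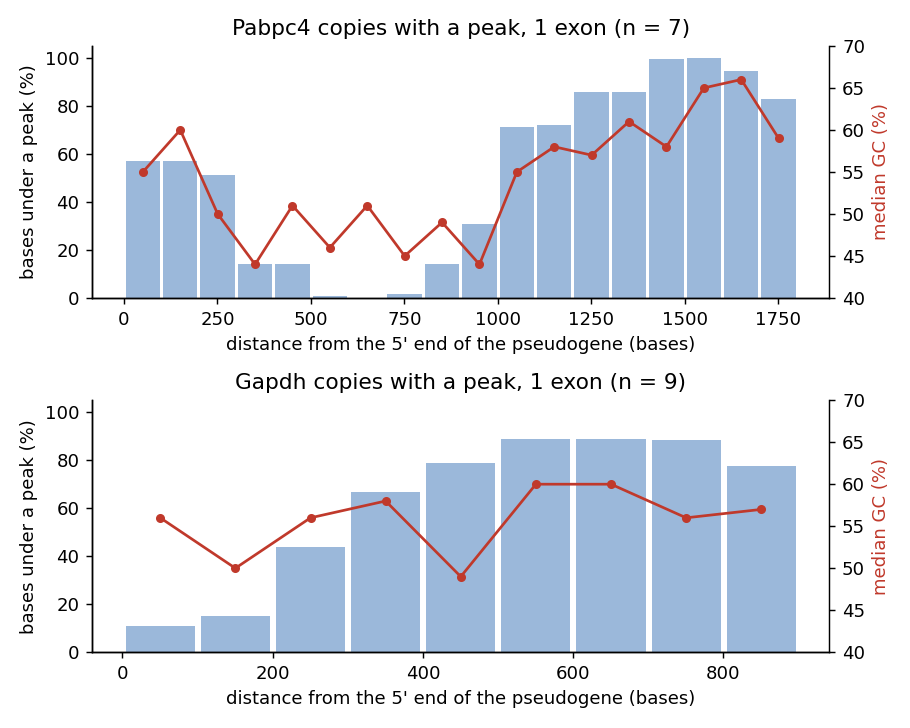
Bars give the share of bases under an H1t peak (%) in 100-base steps from the 5′ end of single-exon copies that had a peak, 7 for Pabpc4 and 9 for Gapdh; the line gives the median GC content of each step (%). In Pabpc4 the bars are at most 14.3% between bases 301 and 900 and reach 100% between 1501 and 1600.

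By function of the parent, the share touched ran from 0.741% to 7.50%, beside 3.81% of all pseudogenes with a parent by sequence. Ribosomal proteins of the large subunit gave 35 touched of 1447 copies (2.42%, 1.74% to 3.35%), where the GC classes of those copies would give 54.8, and those of the small subunit 22 of 726 (3.03%) against 29.2. Glycolytic enzymes gave 15 of 450 (3.33%) against 16.0, high mobility group proteins and histones 7 of 357 (1.96%) against 9.31, and the respiratory chain 4 of 230 (1.74%) against 8.03. Translation factors gave 4 of 183 (2.19%), chaperones and cyclophilins 3 of 204 (1.47%), ubiquitin and proteasome genes 2 of 148 (1.35%), cytoskeletal genes 1 of 135 (0.741%) and RAN and RAS GTPases 1 of 39 (2.56%). RNA-binding and splicing proteins gave 18 of 240 (7.50%, 4.80% to 11.5%) against 8.50. Of these 18, 7 were Pabpc4 copies and 3 were copies of Snrpc, a U1 snRNP protein. Parents in none of these groups gave 190 of 3768 (5.04%).

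The 15 best scores on processed pseudogenes lay on short GC-rich fragments, on loci of the long group or near it, and on copies of other parents. The first was on Gm43498 (464.65; chr6:18882711-18884196), a single-exon locus of 38.0% GC related to the long group. Mup-ps26 followed, then Gm48667 (447.27), Gm10060 (432.34) and Gm21769 (387.58), fragments of 139, 111 and 111 bases with 64.9% to 65.8% GC, each wholly inside a peak of 1261 to 1699 bases. The Asap2 fragments Gm48525 (318.15), Gm47385 (279.79) and Gm47437 (277.74) were alike in size and composition. Gm9397 (299.08) is a copy of Mkrn1, and Gm11620 (261.97), with 1845 bases all covered and 61.7% GC, a copy of Cactin. Gm47932, Gm47933 and Gm47934 shared 1 peak (254.03), and the Pkm copy Gm7046 (253.77) and Rps12-ps2 (251.83) completed the first 15.

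One group of sequences stood apart. Loci were joined when they were at least 80% identical over at least 80% of the longer one, and among groups of 20 or more the one described here had the largest share touched, 27 of 42 (64.3%, 49.2% to 77.0%). It was chosen for that share, which is therefore a description. Its members were 2659 to 3853 bases long with a median of 3838, had 1 exon each and held 35.8% to 39.4% GC, at which the GC classes would give 1.66 touched loci. That count takes no account of length and is low for loci this long. Windows of 2929 bases were touched in 9.50%, and single-exon loci of at least 2000 bases outside the group and its relatives in 8.84%. Pairs of members were between 84.4% and 99.9% identical, with a median of 92.3%. The members lie on 9 chromosomes, 11 of them on chromosome 10 and 10 on chromosome 12, and 37 are intergenic.

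None of the 42 had a parent by the rule used. Their best matches among coding transcripts were to D10Wsu102e (28 loci), Vmn2r53 (12) and Olfr635 (2), and no matched base lay in a coding sequence. The longest reading frame without a stop had a median of 523 codons, and in 10 members it had 1000 codons or more, up to 1281. In 20 of the 42 the longest such frame encoded the residues Phe-Ala-Asp-Asp, which lie at the active site of LINE-1 reverse transcriptase, and it did so in none of 195 other pseudogenes with at least 2000 bases of transcript. Whether these loci are LINE-1 sequence was not tested against a repeat library. In 6 cases a member had a processed pseudogene of 1090 to 1113 bases 42 to 56 bases before its 5′ end on the same strand, and 4 of these 6 neighbours were touched (Gm47967, Gm47628, Gm47933 and Gm47103). Gm47628, Gm47933 and Gm47103 were each touched only by a peak that also touched the long member beside them, so they are not separate sites. Gm47967 had a peak although the long member beside it had none. The 6 neighbours belong to a sequence group of 8 loci, of which 6 were touched.

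Best scores in the group were high, and its peaks extended past the annotated ends. The best score of the 27 touched members had a median of 135.74 and ran from 66.75 in Gm48128 to 254.03 in Gm47932, whereas other touched pseudogenes had a median of 70.78. A best score is the highest among the peaks on a locus. The touched members were longer than the others (median 3838 against 751 bases) and more often held several peaks, so the 2 medians are not like for like. In all, 51 peak overlaps were counted, 18 members had at least 2 peaks, and touched members were covered over 320 to 3232 bases with a median of 1369. Gm42785 was covered over 3232 of 3835 bases by 3 peaks. Along the longest member, coverage over the 42 aligned loci was 22.0%, 24.2%, 28.0% and 27.8% in 4 equal parts from the 5′ end. GC content did not set the covered part apart, with medians of 38.4% in covered and 38.0% in uncovered bases of the 27 members, and the covered part was the richer in 13. Coverage was 27.1% in the 250 bases before the 5′ end, 16.2% between 750 and 1000 bases before it, 8.99% between 1000 and 1250 and 27.6% between 1500 and 1750, so a second covered block lay upstream. It stood at 29.4% in the 250 bases after the 3′ end, but only 2.97% between 2500 and 5000 bases away. Pseudogenes of at least 55% GC outside the group had 13.0% in the body and 8.17% and 6.13% in the 250 bases before and after it, and 2.34% farther away.

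**Figure D5:**
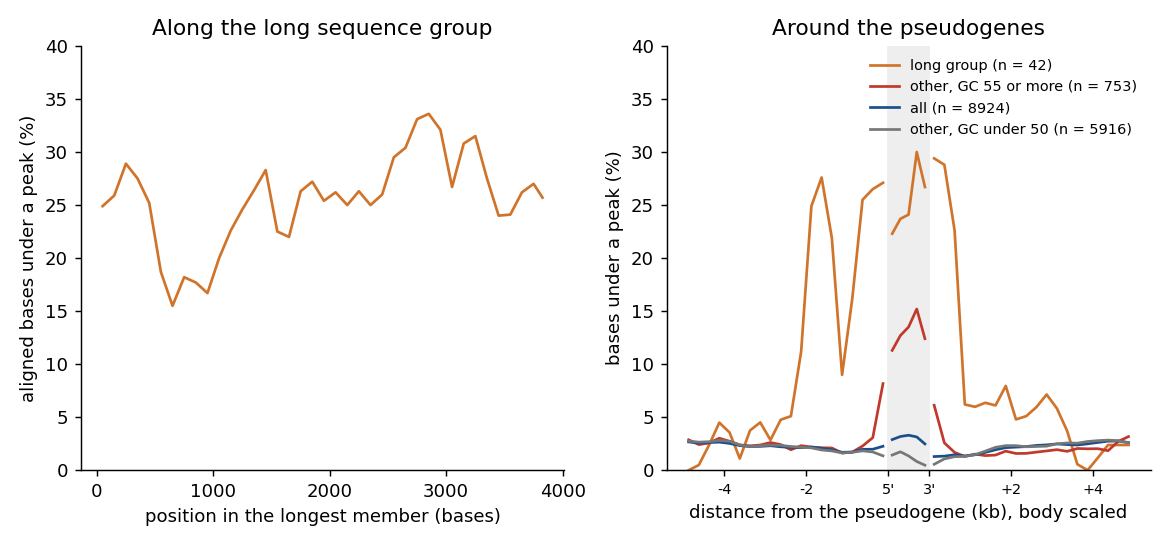
Left, share of aligned bases under an H1t peak (%) in 100-base steps along the longest member of the long sequence group. Right, share of bases under a peak (%) within 5 kb of the pseudogene, with the body scaled to 1 width, for the long group, all processed pseudogenes and the others by GC content. The long group has 27.1% in the 250 bases before the 5′ end, 8.99% between 1000 and 1250 bases before it and 27.6% between 1500 and 1750, and the loci below 50% GC lie at 1.17% in the body and 2.55% between 2500 and 5000 bases away.

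The 15 members without a peak had nearly the same median length as the touched ones, 3835 against 3838 bases. Short copies nevertheless made up a larger part of the members without a peak, at 2659, 2681, 2841, 3154, 3175 and 3628 bases. The short touched members had 2735, 2791, 3107, 3238 and 3247 bases, and all other members of the group at least 3778. The median GC content of the 15 was 37.7% against 38.7%, and their identity to the best coding-transcript match was 92.2% against 95.7%. A peak was present in 8 of the 10 members with a frame of 1000 codons or more. Near-identical copies and reads that match several positions cannot be told apart from binding at each copy in a list of this kind. The 29 related loci, at least 80% identical to a member over at least 50% of their own length, had 8 touched (27.6%, 14.7% to 45.7%).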

How the data were processed

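The deposited file is a list of 76546 peaks of the H1t library with a score per peak, which is the authors' own value, without a stated definition. The submitters' processing notes name Bowtie 1.1.2 and the build mm10. Which program called the peaks, at which threshold and from how many reads was not given in the sources used here. A pseudogene counted as touched when 1 base or more of its annotated span lay under a peak. Windows tiled the autosomes without stretches of at least 500 kb that held neither gene nor peak. GC content came from the longest annotated transcript. Parents by sequence were found with BLAST 2.17.0: the best same-strand match to a coding transcript with at least 2 coding exons, over at least 50% of the pseudogene and 50 coding bases. Named loci were the 15 best scores, the 10 best among -ps copies, -ps parents with at least 10 copies and their genes, 11 functional groups, and the 3 longest with and without a peak. Families by sequence, the long group and the GC class counts were added after values were seen. The GC class counts use the shares of all loci outside the long group and its relatives, which include the families and functional groups compared. They take no account of length, so they are low for long loci. The members and lists were chosen with earlier results of these data known. Overlap code was tested on simulated intervals in Python 3.11.15. No test was run, since no replicate exists.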

Additional observations from a re-analysis of the deposited data

Results flagged for a closer look

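Processed pseudogenes on the sex chromosomes lie outside the set described above. On X and Y together, 8 of 1016 were touched (0.787%, 0.400% to 1.55%), against 4.10% on the autosomes. All 8 were among the 925 on X (0.865%, 0.439% to 1.70%), and none of the 91 on Y was touched (interval up to 4.05%). Windows were tiled on the autosomes only, so no share of arbitrary X or Y sequence was set beside these values. The input was not analysed, so no control level was either.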

How the results depend on the processing

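Of 37 values under other settings, 27 stayed inside the 95% counting interval of the value reported and 10 left it (for the ratio of covered shares, the relative width of the interval of the share touched was used). With 1 library, the causes of the 10 moves were not tested beyond what each setting removes. With only peaks above the median score the share of pseudogenes touched was 1.96% (windows 2.32%), the ratio of covered shares 1.09 and the share of -ps copies 1.42%. Requiring a peak midpoint inside gave 2.85%, and coverage of at least 50% gave 1.96%, with 2.59% for -ps copies. The next 2 settings, and the count over every -ps symbol, were chosen after seeing the data. With exons only, the ratio of covered shares was 1.04 and the class of 2000 bases or more 13.1%. Without the long group and its relatives these were 0.982, on the other side of 1, and 13.7%. The ratio of intronic to intergenic shares stayed between 0.736 and 0.947 in 9 settings. No paired analysis was possible because the only peak list is that of 1 library. Read depth is not known, so pseudogenes without a peak may lie under the authors' threshold.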
